A study of Drosophila melanogaster with 2 samples.

Results

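The small nucleolar RNA (snoRNA) genes of Drosophila melanogaster and the genes that hold them in their introns were described in a map of Fer3 occupancy. The members were all 269 genes with the biotype snoRNA on the chromosome arms, of 18277 annotated genes there, transposable elements left out. Of these, 243 lay in an intron of a gene on the same strand, and the 92 genes that held them are called hosts. The members were chosen by annotation alone, without reference to a peak. The annotation was Ensembl release 115 (BDGP 6.54), which has the coordinates of the dm6 build used for all positions.

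Fer3 is a basic helix-loop-helix transcription factor, and factors of this kind bind E-boxes, sites of the form CANNTG. Chromatin was precipitated from whole embryos of 6 to 24 h with an antibody against GFP, per the sample descriptions, while the antibody field of the labels names Fer3. The stage is that of the source name, since the age field holds a number that no embryo can have. The embryos came from a transgenic line of strain Fer3 that stably expresses Fer3 with GFP at the C terminus; sex was not collected. There was 1 group, with 2 biological replicates from separate biosamples of that line, and 1 control alignment served both replicates. Whole embryos mix all tissues, so fewer bound cells and lower occupancy per cell cannot be told apart. The promoter that drives the tagged protein, and the level of the protein, are not stated in the labels.

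The lists of replicate 1, of replicate 2 and of both pooled held 30000 peaks each. Another list, thresholded by the irreproducible discovery rate, held 5636 peaks and is called reproducible here. These 5636 were the highest peaks of the pooled list, so a reproducible peak has the same signal value and rank in both. The signal value is the authors' own height of a peak, of undefined scale. It is used only to describe and rank peaks within a list, where rank 1 is the highest. The depth behind the peaks is unknown, because no list gives read counts. With 1 group and no counts, no test between conditions was possible, and the text gives counts, shares and positions. Ranges after a share are its exact Clopper-Pearson 95% interval. They cover counting error over genes alone, and neighbouring genes can share a summit.

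Box C/D snoRNAs guide 2′-O-methylation of ribosomal and spliceosomal RNA, and box H/ACA snoRNAs guide pseudouridylation. Most fly snoRNAs are cut out of the spliced introns of longer transcripts, so that the start of the host gene is also where their transcription begins. Many hosts encode ribosomal or nucleolar proteins, while the U snoRNA host genes (Uhg) are noncoding RNAs whose introns carry the functional product. U3 is the box C/D RNA that acts in the early cleavages of the ribosomal RNA precursor, and it is made from genes of its own.

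By symbol, 106 members were pseudouridylation guides (Psi), 77 methylation guides (Me), 21 orphans with no assigned target (Or), 18 had a U-class or snR name, 16 were small Cajal body RNAs (scaRNA) and 31 had other names. Their median length was 134 bp (46 to 316). The boxes of each kind went with the symbols. TGATGA within the first 20 bases together with CTGA within the last 20, the C and D boxes, was present in 59 of 77 methylation guides (76.6%) and in 0 of 106 pseudouridylation guides. ACA within the last 8 bases was present in 103 of 106 pseudouridylation guides (97.2%) and in 4 of 77 methylation guides. The 3 genes below stand for the 3 settings met in the results. The methylation guide Me18S-A1576 lies close to the start of the noncoding host Uhg2, the pseudouridylation guide Psi18S-920 lies in the ribosomal protein gene RpL10Ab, and U3:9B is a gene without a host. They are read 5′ to 3′ from the reference genome (RefSeq, Release 6, the same coordinates as dm6), and capitals mark the C and D boxes in the first, the ACA box in the second and CTGA in the third.
Me18S-A1576, chr2L:9894795-9894907 (minus strand): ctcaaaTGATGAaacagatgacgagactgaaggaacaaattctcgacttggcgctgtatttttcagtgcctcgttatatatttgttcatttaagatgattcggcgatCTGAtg
Psi18S-920, chr3L:11822984-11823124 (plus strand): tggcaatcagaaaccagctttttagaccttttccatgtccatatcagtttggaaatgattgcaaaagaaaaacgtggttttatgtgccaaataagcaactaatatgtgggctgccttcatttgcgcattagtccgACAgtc
U3:9B, chrX:10348125-10348337 (plus strand): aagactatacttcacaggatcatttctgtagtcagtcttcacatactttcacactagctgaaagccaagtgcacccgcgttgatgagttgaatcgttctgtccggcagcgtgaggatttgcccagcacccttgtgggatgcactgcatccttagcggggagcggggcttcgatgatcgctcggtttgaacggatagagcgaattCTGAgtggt

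The next sequences show the sites of some of the highest peaks of tagged Fer3 at host starts. They are 101 bp windows centred on the highest reproducible summit at the host start, read on the host's strand, for 5 of the 10 hosts with the highest peaks. The 5 are not the top of that list, since Stt3A (signal 1362) and Uhg4 (989) stood above RpL14 (949) and are not shown. Capitals mark E-boxes, and 2 of the 5 windows hold one.
CG1142 summit, chr3R:7473916-7474016 (minus strand): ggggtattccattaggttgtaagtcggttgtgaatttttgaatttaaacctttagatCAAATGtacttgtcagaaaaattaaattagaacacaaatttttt
RpL14 summit, chr3L:8600912-8601012 (plus strand): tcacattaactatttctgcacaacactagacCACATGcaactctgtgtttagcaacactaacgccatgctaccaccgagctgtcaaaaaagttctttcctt
Msp300 summit, chr2L:5108118-5108218 (plus strand): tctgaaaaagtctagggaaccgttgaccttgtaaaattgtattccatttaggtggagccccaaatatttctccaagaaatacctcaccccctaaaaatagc
RpL23A summit, chr3L:1668702-1668802 (minus strand): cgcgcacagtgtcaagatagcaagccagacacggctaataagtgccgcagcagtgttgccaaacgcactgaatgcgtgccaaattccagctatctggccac
Dys summit, chr3R:19460813-19460913 (plus strand): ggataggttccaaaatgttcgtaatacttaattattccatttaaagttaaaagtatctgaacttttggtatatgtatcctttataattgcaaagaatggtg

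Ribosomal protein promoters of Drosophila often start transcription at a TCT initiator within a run of pyrimidines. The windows below run from 50 bp before the annotated start to 20 bp from it, for 4 ribosomal protein hosts and for Uhg2 as a noncoding host. Capitals mark TCTTT on the sense strand where its first base lay within 10 bp of the start. The first base of such a match lay at position 5 in RpL13A, 3 in RpL3 and 4 in RpS5a, counted with the annotated start as 1, and 2 bp before the start in RpL14. Uhg2 held none at that distance.
RpL14 start, chr3L:8600956-8601025 (plus strand): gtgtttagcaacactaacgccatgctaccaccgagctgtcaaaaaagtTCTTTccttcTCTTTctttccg
RpL13A start, chr3R:5624424-5624493 (plus strand): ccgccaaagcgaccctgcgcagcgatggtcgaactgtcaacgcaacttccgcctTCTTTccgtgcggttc
RpL3 start, chr3R:11221844-11221913 (plus strand): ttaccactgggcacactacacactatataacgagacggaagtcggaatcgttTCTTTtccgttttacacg
RpS5a start, chrX:17148245-17148314 (minus strand): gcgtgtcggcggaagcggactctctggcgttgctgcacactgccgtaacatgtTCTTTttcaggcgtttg
Uhg2 start, chr2L:9894984-9895053 (minus strand): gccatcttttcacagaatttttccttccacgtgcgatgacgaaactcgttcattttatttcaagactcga

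The first question was whether peaks lay at the snoRNA genes themselves. A reproducible summit lay within 500 bp of 24 of the 269 genes (8.92%, 5.80 to 12.98), and a pooled summit within 500 bp of 69 (25.7%, 20.5 to 31.3). Replicate 1 had a summit near 47 of them (17.5%) and replicate 2 near 101 (37.5%). Over all annotated genes on the arms the shares were 25.8% in the reproducible list, 51.9% in the pooled list, 52.2% in replicate 1 and 54.2% in replicate 2. Most annotated genes are longer than a snoRNA gene, so that the window around them covers more bases.

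Genes for transfer RNAs and microRNAs are also short. A reproducible summit lay within 500 bp of 7.59% of 290 transfer RNA genes and of 5.0% of 260 microRNA genes. Pooled summits lay near 61.7% and 24.2% of them. The share of snoRNA genes was 8.92% and 25.7% in these lists, and no test between the classes was run. By bases, 3.96% of the arms lay within 500 bp of a reproducible summit and 18.5% within 500 bp of a pooled one.

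A reproducible summit fell inside 1 snoRNA gene, Psi18S-176, and pooled summits fell inside 11. These were 0.0177% of the 5636 reproducible and 0.0367% of the 30000 pooled summits, where snoRNA genes make up 0.0234% of the bases of the arms. Within 1000 bp, a reproducible summit lay near 74 genes (27.5%) and a pooled one near 143 (53.2%), and within 250 bp the counts were 12 and 43. With snoRNA genes within 500 bp of each other merged into 132 loci, 19 loci had a reproducible summit (14.4%) and 48 a pooled one (36.4%).

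By class, the intervals of the reproducible shares were wide. Methylation guides had a reproducible summit within 500 bp in 8 of 77 (10.4%, 4.59 to 19.4) and pseudouridylation guides in 7 of 106 (6.60%, 2.70 to 13.1). Orphans had one in 5 of 21 (23.8%, 8.22 to 47.2) and a pooled one in 11 of 21 (52.4%). None of the 18 U-class genes had one, which allows a share of up to 18.5%, and none of the 16 scaRNA genes, which allows up to 20.6%. The limit for the U class counts each gene as separate, although 11 of the 18 lie side by side in Uhg1. The intervals of the reproducible shares overlap. In the pooled list the share was 26.0% in methylation guides (16.6 to 37.2) and 18.9% in pseudouridylation guides (11.9 to 27.6). It was 22.2% in the U class, 12.5% in scaRNA genes and 38.7% in genes with other names. The pooled interval of orphans, 29.8 to 74.3, did not overlap that of pseudouridylation guides. No test between classes was run.

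Among the 243 intronic genes, 13 of the 18 with a reproducible summit within 500 bp lay close to the start of their host. These were 13 of the 33 genes at most 500 bp from the nearest host start (39.4%, 22.9 to 57.9). Beyond 500 and up to 1000 bp it was 2 of 50 (4.0%, 0.488 to 13.7), from there to 2000 bp 1 of 75 (1.33%) and beyond that 2 of 85 (2.35%). Pooled summits were near 19 (57.6%), 15, 8 (10.7%) and 6 (7.06%) of the genes in these bins, a lower share in each further bin. Replicate 1 had a summit near 15, 5, 5 and 7 of the genes in these bins, and replicate 2 near 22, 20, 19 and 19. The share was thus highest in the nearest bin in each replicate, at 45.5% and 66.7%. In the bins past 1000 bp, the pooled shares were 10.7% and 7.06%, those of replicate 1 6.67% and 8.24%, and those of replicate 2 25.3% and 22.4%. Of all intronic bases, 22.3% were within 500 bp of a pooled summit. That is a share of bases and not of genes, and many genes in these bins lie side by side in the same host.

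**Figure D1:**
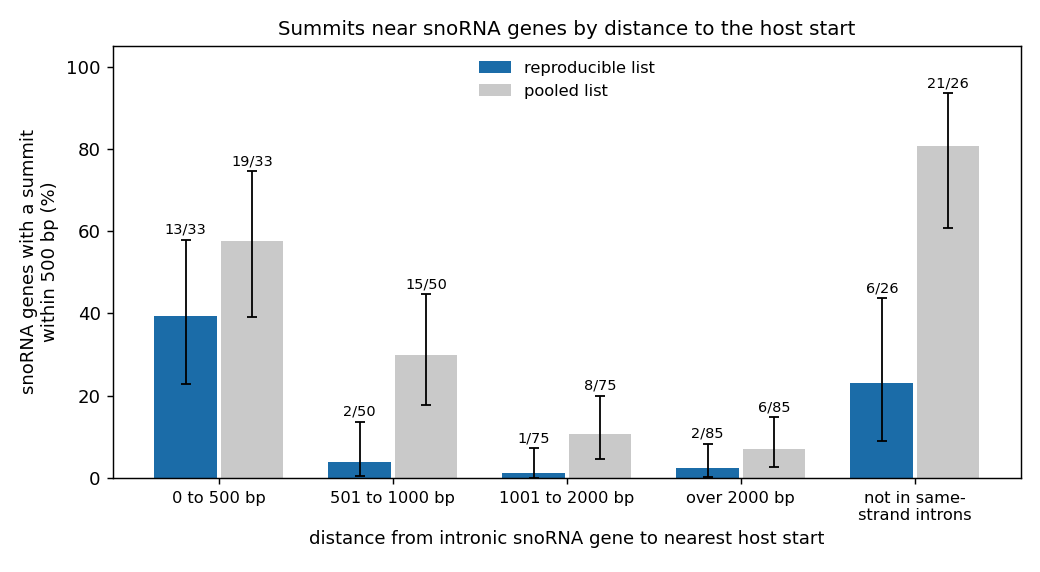
Share of snoRNA genes (y axis, percent) with a summit within 500 bp, for intronic genes by distance to the nearest host start in bp and for genes outside same-strand introns; bars give the reproducible and the pooled list, error bars the exact 95% interval, and labels the counts. The reproducible share was 39.4% in the nearest bin and at most 4.0% in the 3 further bins of intronic genes. It was 23.1% outside same-strand introns, where the pooled share was 80.8%.

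Of the 18 intronic genes with a reproducible summit (7.41%, 4.45 to 11.5), 15 had one that also lay within 500 bp of a start of their host. The pooled list gave 48 such genes (19.8%), 21 of them by a summit that was also at a host start. The remaining 3 reproducible cases were met at other places, and 2 of them are given here. Or-CD4, in Uhg5 at 2652 bp from the start, had a summit 338 bp away with a signal of 198. The summit near abba-a, in an intron of tn 3659 bp from the nearest start, lay 478 bp from it with a signal of 336.

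The 10 snoRNA genes with the highest reproducible peaks within 500 bp were led by the first genes of Uhg4. Its peak, with a signal of 989 (rank 241), lay 78 bp upstream of the start, 177 bp from the pseudouridylation guide Psi28S-2949 and 490 bp from the orphan Or-aca5. Next came Or-CD11a in RpL28 (671, at 497 bp), Me18S-C1096 in RpL3 (599, at 467 bp) and Me28S-A774b in RpS12 (491, at 243 bp). In each of these the summit was also the one at the host start. Further down were Or-CD13 (479), Psi28S-1232 in RpL17 (392), the gene named 185 (363), abba-a (336) and Psi18S-1275 in RpS29 (335). Over all 24 genes the median signal was 285 (136 to 989), where that of all reproducible peaks was 224 (126 to 5902).

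The guides shown above by sequence were further cases of this kind. Me18S-A1576 lies 133 bp downstream of the Uhg2 summit (signal 215, rank 2974), which was in both replicate lists at ranks 3851 and 2680. Psi18S-920 lies 164 bp from the summit at the RpL10Ab start (signal 329, rank 1686). That summit also was in both lists, at ranks 1152 and 2225.

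The next question was whether peaks lay where the transcripts that carry the snoRNAs begin. A reproducible summit lay within 500 bp of a start of 62 of the 92 hosts (67.4%, 56.8 to 76.8), and a pooled one for 74 (80.4%, 70.9 to 88.0). Replicate 1 had a summit there for 69 hosts and replicate 2 for 79. Among all 12929 genes with an annotated intron the shares were 23.5% in the reproducible and 49.3% in the pooled list, and among all protein-coding genes 22.6% in the reproducible list. Of the 243 intronic snoRNA genes, 169 (69.5%) were held by a host with a reproducible summit and 224 (92.2%) by one with a pooled summit.

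The hosts were made up of 29 ribosomal protein genes, 7 Uhg genes, 52 other protein-coding genes and 4 other noncoding genes. They held 75, 47, 124 and 8 snoRNA genes, where 11 snoRNA genes that lie in introns of 2 overlapping hosts count for each. Such shared genes came from 5 pairs, among them Sf3b3 with lncRNA:CR45184 (5 genes) and RpL23A with Uhg7 (3 genes). Among hosts that held 1 snoRNA gene, 31 of 53 (58.5%) had a reproducible summit at a start, among those with 2 it was 12 of 13 (92.3%), and among those with 3 or more 19 of 26 (73.1%).

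Ribosomal protein hosts had a reproducible summit in 28 of 29 cases (96.6%, 82.2 to 99.9). Ribosomal protein genes that hold no snoRNA gene had one in 80.7% of 57, so a high share was also seen outside the hosts. The median signal was 394 (134 to 949) in the hosts and 411 in the others. The summits lay close to the start, at a median of 31.5 bp in the hosts and 28.5 bp in the others. In 26 of the 28 hosts (92.9%) and in 44 of the 46 others (95.7%) the highest summit was within 100 bp. None of the 28 summits was nearer to the start of another gene.

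The highest ribosomal protein host peaks were those of RpL14, RpL23A, RpL13A and RpL30, which encode proteins of the large subunit. RpL14 (chr3L:8601006-8602392) had a signal of 949 (rank 268) with the summit 44 bp upstream of the start, and signals of 400 in replicate 1 and 563 in replicate 2. The start of Nelf-E, which encodes a subunit of the negative elongation factor, lay 83 bp from the same summit. RpL23A (chr3L:1666288-1668654) reached 849, with 392 and 472 in the replicates, RpL13A (chr3R:5624474-5625947) reached 729, with 299 and 428, and RpL30 (chr2L:19008031-19009306) reached 719, with 284 and 432. All 4 were thus high in both replicates, at ranks between 209 and 503. Neither U49 gene in RpL14 had a pooled summit within 500 bp. The nearer of them lay 467 bp downstream of the start, so the summit 44 bp upstream was just past that limit. In replicate 2, 1 of the 2 genes had a summit within 500 bp.

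RpL5 (chr2L:22532279-22536884) was the 1 ribosomal protein host with no reproducible summit. It had a peak at the start in both replicates, at rank 2760 in replicate 1 and 3473 in replicate 2. The nearest summit of the pooled list was 288738 bp away. RpL5 was thus listed in both replicates and in neither combined list.

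The Uhg genes are noncoding, and 5 of the 7 had a reproducible summit at the start (71.4%, 29.0 to 96.3). Over the arms, 9.72% of 936 noncoding genes with an intron had one. In the Uhg genes the median signal was 201 (139 to 989) and the median distance to the start 49 bp. Uhg4 was the highest. Its signals were 440 in replicate 1 and 543 in replicate 2. Uhg2, Uhg5 and Uhg3 had summits 37, 14 and 49 bp upstream of the start and signals of 215, 190 and 139. Uhg3 was uneven between replicates, at rank 16382 in replicate 1 and 4492 in replicate 2. The summit of Uhg8 (signal 201) lay 316 bp upstream and was nearer to CG5199, whose start was 113 bp from it.

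Uhg1 and Uhg7 had no reproducible summit. Uhg1 (chr2R:17699097-17703344), which holds 16 box C/D genes, had a pooled peak 96 bp upstream of its start with a signal of 125 and rank 5671, just past the lowest of the 5636 reproducible peaks. It was in both replicate lists, at rank 4175 in replicate 1 and 4026 in replicate 2. Uhg7 had no summit in any list, and its 3 snoRNA genes also lie in introns of RpL23A.

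Other protein-coding hosts had a reproducible summit in 28 of 52 cases (53.8%, 39.5 to 67.8) and a pooled one in 39 (75.0%). Protein-coding genes with an intron that are neither hosts nor ribosomal protein genes had a reproducible one in 24.3% of 11704. The median signal was 328 (138 to 1864) against 264 in these other genes. Their summits lay further from the start than those of the ribosomal protein hosts, at a median of 165 bp against 148 bp in the other genes, and 6 of 28 (21.4%) were within 100 bp against 29.5%. In 11 of the 28 (39.3%) the highest summit was nearer to a start of another gene.

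This group held the highest peaks of all hosts. CG1142 (chr3R:7472458-7473781), which holds the scaRNA gene MeU5-C46, had a signal of 1864 (rank 59) 185 bp upstream of its start, with 724 in replicate 1 and 1150 in replicate 2. Msp300, which encodes a giant nesprin of the nuclear envelope, had a signal of 860 (324 and 543 in the replicates) 344 bp upstream of an internal start, and Dys, which encodes dystrophin, 825 (323 and 501). Stt3A, which encodes a catalytic subunit of the oligosaccharyltransferase, had 1362, but the summit was 387 bp from its start and 222 bp from that of bves. Likewise the peak at Irbp, which encodes a Ku protein of DNA end joining (789), was 111 bp from its start and 61 bp from that of mgr. These 5 hosts ranked between 58 and 449 in each replicate.

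**Figure D2:**
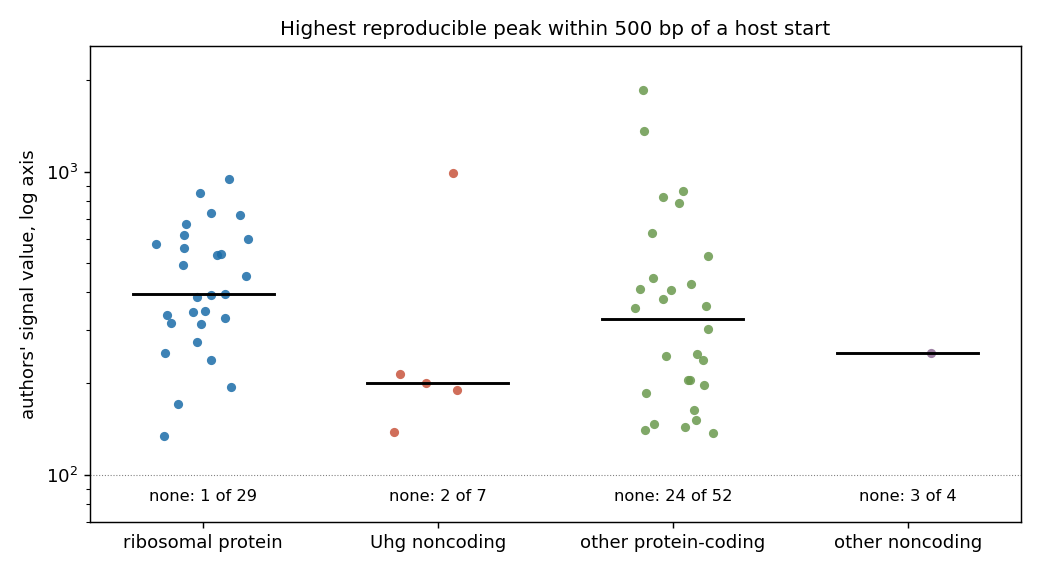
Signal value of the highest reproducible peak within 500 bp of a start (log axis, authors' scale) for each of the 92 hosts by group; points are hosts, black lines the group medians, and the hosts without such a peak are counted below. The medians were 394 for ribosomal protein, 201 for Uhg and 328 for other protein-coding hosts, and 1 of the 29 ribosomal protein hosts had none.

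None of the 10 hosts that hold most snoRNA genes, with ties taken by symbol, was among the 10 with the highest peaks, although Uhg4 among the latter also holds 7. Arpc2 (chr2L:20417057-20423027), which encodes a subunit of the actin-nucleating Arp2/3 complex, holds 17 pseudouridylation guides and had a peak 70 bp upstream of the start with a signal of 205 and rank 3139. The start of CG10949 was 69 bp from the same summit. RpS5a (chrX:17143588-17148264), with 14 guides, had 386 at 45 bp upstream, and RpS7, with 7, had 347 at 6 bp upstream. The peaks of kra, a regulator of translation with 8 genes, and of Hrb98DE, an RNA-binding protein of the hnRNP A family with 7 genes, were 251 and 138. Of the 10 hosts with most snoRNA genes, 6 had a reproducible summit at the start, namely Arpc2, RpS5a, Uhg5, kra, Hrb98DE and RpS7.

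The other 4 had a pooled summit alone. Besides Uhg1 these were dom, an ATPase of chromatin remodelling with 15 snoRNA genes, Sf3b3, a subunit of the splicing factor SF3b with 9, and Nop60B with 7. Nop60B encodes the pseudouridine synthase of box H/ACA particles, and so is both a host and a partner of many members. Its pooled rank was 7161, with rank 3935 in replicate 1 and 11373 in replicate 2. The peaks of dom and Sf3b3 lay 231 and 110 bp downstream of the start at pooled ranks 14988 and 7890. Each had a summit within 500 bp of the start in replicate 2 and none in replicate 1. The replicate 2 summit of dom lay elsewhere, 23 bp downstream of the start at rank 3305. That of Sf3b3 lay 109 bp downstream at rank 5040.

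**Figure D3:**
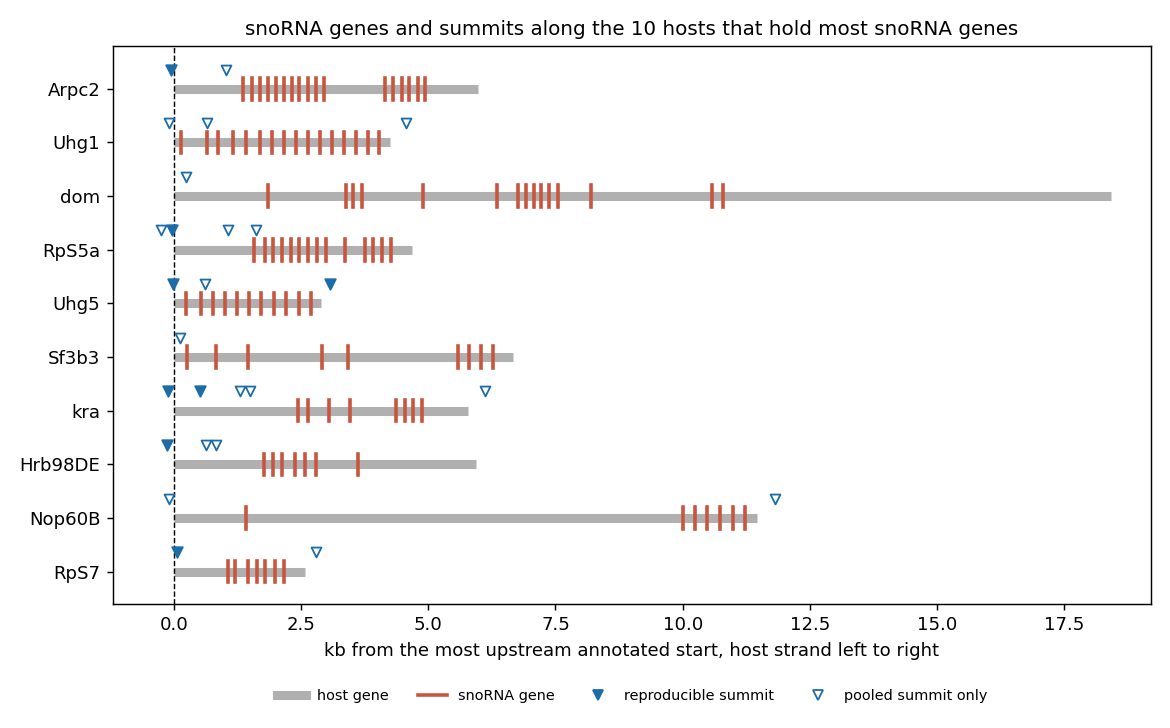
Maps of the 10 hosts that hold most snoRNA genes, in kb from the most upstream start of each host (x axis); red ticks are snoRNA genes, filled triangles reproducible summits and open triangles summits of the pooled list alone, along the gene and 500 bp to each side. The snoRNA genes run along the gene, with 17 in Arpc2 and 14 in RpS5a, while Arpc2, RpS5a, RpS7 and Hrb98DE each show 1 reproducible summit.

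Along the gene and 500 bp to each side, the summit at the start was the 1 reproducible summit of Arpc2, RpS5a, RpS7 and Hrb98DE, which hold 17, 14, 7 and 7 snoRNA genes. Uhg5 and kra had 2, and the 4 others none. Summits of the pooled list alone numbered 1 to 3 in each of the 10. By bases, 8.50% of the host introns lay within 500 bp of a reproducible summit, against 4.51% of all introns, and 30.3% against 22.3% for pooled summits.

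Of the 30 hosts without a reproducible summit at a start, 12 had a pooled one and 18 had none. Of these 18, 11 had no summit in any list, 7 had one in replicate 2 and 1 in replicate 1, RpL5 being in both. Besides Uhg7, 2 hosts with several snoRNA genes had no pooled summit. lncRNA:CR45184, with 5 snoRNA genes that it shares with Sf3b3, had none in any list, and CG10576, also with 5, had a peak in replicate 2 alone at rank 13911.

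Most summits lay upstream of the host start. In 52 of the 62 hosts with a reproducible summit (83.9%) the highest was upstream, against 85.2% of the 3041 genes with an intron that had one. It was 21 of 28 in the ribosomal protein hosts (75.0%, 55.1 to 89.3), against 60.9% (45.4 to 74.9) of the ribosomal protein genes that are no hosts, and 25 of 28 in the other protein-coding hosts (89.3%), against 86.1%. Over all 62 hosts the median distance was 72 bp against 146 bp, and 37 (59.7%) were within 100 bp against 30.7%. By group the median was 31.5 bp in the 28 ribosomal protein hosts and 165 bp in the 28 other protein-coding hosts.

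**Figure D4:**
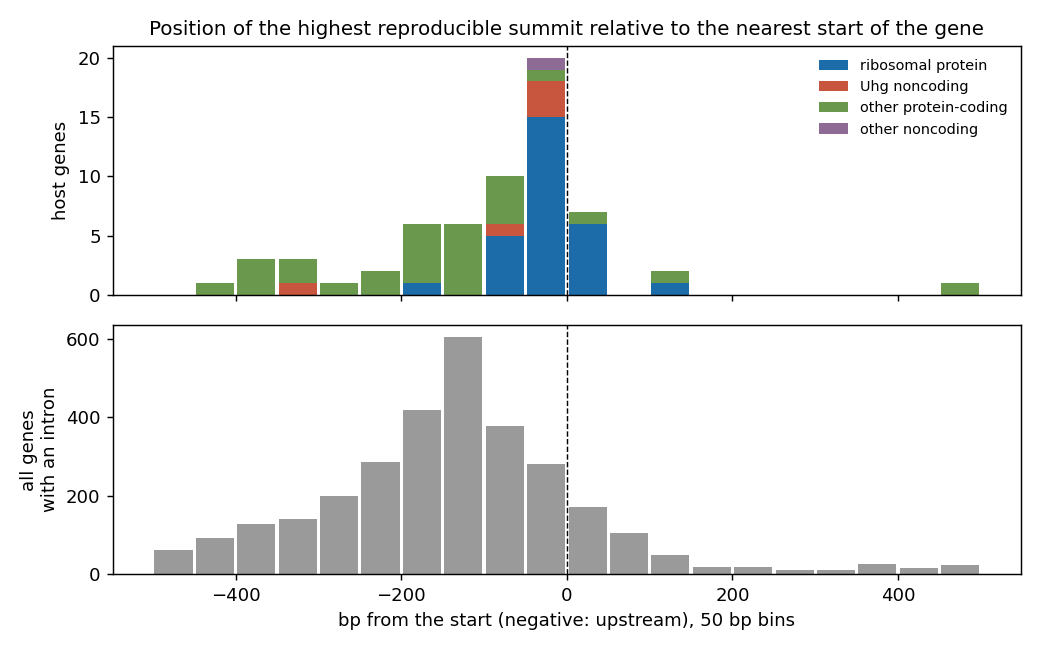
Position of the highest reproducible summit relative to the nearest start in bp (x axis, 50 bp bins, negative upstream), as numbers of hosts by group above and numbers of all genes with an annotated intron below. Of the 62 hosts, 37 lie within 100 bp of the start, 26 of them ribosomal protein genes, and 52 lie upstream.

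The replicates ranked the hosts alike. Of the 62 hosts with a reproducible summit, 59 had a summit at a start in both replicate lists. RpL15 had none in replicate 2, and Edc3 and pths had none in replicate 1. Over the 68 hosts with a peak in both, Spearman's rho of the signal values was 0.872. This describes genes of 1 experiment, and both lists share the control alignment. Any summit within 500 bp of any start counted, so the highest peaks of a host in the lists need not be the same peak. The highest replicate 1 summit at lola (rank 10002) lay at a different start from the reproducible one (rank 1193). The highest replicate 1 summits at hts and pAbp and the highest replicate 2 summit at drn also lay away from the reproducible ones.

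**Figure D5:**
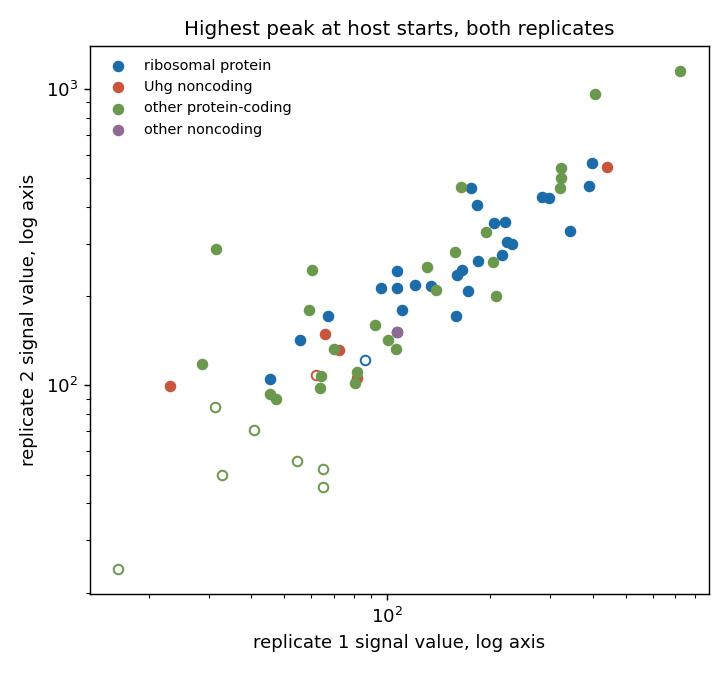
Signal value of the highest peak at each host start in replicate 1 (x axis) and replicate 2 (y axis), both on log axes and on the authors' scale, for the 68 hosts with a peak in both; filled points had a reproducible summit and open points none. CG1142 is highest on both axes, at 724 and 1150, followed on the replicate 2 axis by Stt3A, at 408 and 958.

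Of the 26 snoRNA genes outside same-strand introns, 21 (80.8%, 60.6 to 93.4) had a pooled summit within 500 bp. The share was 19.8% in intronic snoRNA genes, 61.7% in transfer RNA genes and 51.9% in all genes on the arms. Replicate 1 had a summit near 15 (57.7%) and replicate 2 near 21. By place, 11 of the 12 genes outside all introns and exons had a pooled summit, 9 of the 12 in introns of a gene on the opposite strand, and 1 of the 2 that overlap an exon. Their 21 highest summits were 17 distinct ones, and 14 of the 21 lay over 500 bp from the start of any gene other than a snoRNA gene. In 13 of the 21 the summit lay within 250 bp of the 5′ end of the snoRNA gene, and in 12 it lay upstream of that end. Intergenic bases lay within 500 bp of a pooled summit in 16.2%. Pooled peaks with a deposited q-value of at most 0.05 were near 16 of the 26, a setting added after the data were seen.

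Most of these peaks were not in the reproducible list. Reproducible summits were near 6 of the 26 (23.1%, 8.97 to 43.6), by 4 distinct summits, all on arm 2R. The share was 25.8% over all genes on the arms and 7.59% in transfer RNA genes. When the reproducible list was replaced by as many of the highest replicate 1 peaks, 2 of the 26 genes had a summit, and for replicate 2 it was 8. Or-CD13, an orphan in an intron of egr, which encodes the fly tumour necrosis factor, on the opposite strand, had the highest, with a signal of 479 (rank 932). It ranked 972 in replicate 1 and 932 in replicate 2, and its summit lay 403 bp from the gene. The gene named 185 had a signal of 363, 164 bp away, and the summit was 215 bp from the start of a glutamate transfer RNA gene.

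The only reproducible summit inside a snoRNA gene was that in Psi18S-176 (chr2R:23839911-23840064), 42 bp from its 5′ end. Its signal was 172 (rank 3931), with rank 8302 in replicate 1 and 3367 in replicate 2. Psi28S-1153 and its 2 neighbouring genes, which are named by position only, shared 1 summit with a signal of 151, at 413, 249 and 44 bp. That summit lay 446 bp from the start of CG13334, and ranked 7372 in replicate 1 and 4147 in replicate 2. The peaks at these 4 genes thus stood higher in the list of replicate 2 than in that of replicate 1.

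Among the pooled peaks at these genes, Psi18S-301 (chr3R:20574906-20575043) had the highest that was not reproducible, with a signal of 117 (rank 6131) 108 bp upstream of the gene and 2212 bp from the nearest other start. Or-CD14 followed with 94.5. Next was the peak near the scaRNA gene MeU1:95C-A24 (76.1), which was 479 bp away and lay 157 bp from the start of the U1 snRNA gene U1:21D, and then Or-aca4 with 73.7. The other 11 of the 21 genes had signals between 32.7 and 68.3.

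The 3 U3 genes gave 3 different outcomes. U3:9B (chrX:10348125-10348337), shown above, had a pooled summit inside the gene, 92 bp from its 5′ end, with a signal of 67.8 (rank 11276). It was in both replicate lists, at rank 15978 in replicate 1 and 12286 in replicate 2, and the nearest other start was 14565 bp away. U3:54Ab had a pooled peak 77 bp away with a signal of 48.0 and was listed in replicate 2 alone. U3:54Aa had no summit within 500 bp in any list. The signal at U3:9B was above the median of the pooled list, 52.7, and that at U3:54Ab below it.

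The other 15 U-class genes lie in 3 hosts. In Uhg1, 1 of 11 (U29:54Eb, pooled rank 18857) had a pooled summit within 500 bp, in Uhg2 1 of 2 (U14:30Eb, rank 9395), and in RpL14 0 of 2. U14 is a box C/D RNA that acts in the processing of 18S ribosomal RNA. Of the 11 in Uhg1, 4 had a summit in replicate 2 and 0 in replicate 1.

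The proteins of the snoRNA particles form the pathway in which the members act. Of a list of 17 genes, all matched, 2 by a synonym, and 9 (52.9%, 27.8 to 77.0) had a reproducible summit at a start and 14 (82.4%) a pooled one, beside the 22.6% of all protein-coding genes with a reproducible one. In the pooled list, 49.3% of all genes with an intron had a summit at a start. Replicate 1 had a summit for 13 of the 17 and replicate 2 for 15, and no share over all starts is given for these lists. Box C/D core proteins were Nop56 (signal 147), nop5 (247) and the methyltransferase Fib (163), with hoip in the pooled list alone. Among box H/ACA proteins, NHP2 had a signal of 529 (rank 805), Nop60B and Gar1 had a pooled summit alone, and Nop10 had none pooled.

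The assembly ATPase pont had the highest peak of this list, with a signal of 966 (rank 254). It lay 148 bp upstream of the start and 126 bp from that of Sirt6. Its partner rept had 159, and the assembly factor spag 133. Nopp140, a chaperone of the nucleolus and Cajal body, had 305 and the Cajal body protein coil 155. The summits at Fib, coil and spag were also nearer to other starts, 26 bp from CG3085, 136 bp from Socs44A and 31 bp from CG42568, and coil had no peak in replicate 1. Nufip and WDR79 had a pooled summit alone, and Tgs1 and Rexo5 none pooled. Among the reproducible peaks above the median signal, the count was 4 of 17.

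Sequence windows at the starts were compared by presence or absence, from 250 bp before the annotated start to 50 bp after it, on both strands. The DREF site (TATCGATA) was present in 20 of 92 hosts (21.7%, 13.8 to 31.6) and in 8.93% of 12928 genes with an intron, and Motif 1 (GGTCACACT) in 9.78% against 6.03%. The DREF site was in 27.6% of the ribosomal protein hosts and 29.8% of the ribosomal protein genes that are no hosts, in 21.2% of the other protein-coding hosts and in 0 of the 7 Uhg genes. E-boxes (CANNTG, which includes CAGCTG and CATATG) were present in 58 hosts (63.0%, 52.3 to 72.9) against 77.4%, CAGCTG in 11 (11.96%) against 17.96% and CATATG in 2.17% against 8.05%. The share of host starts with an E-box was the lower of the pair for each of these 3 forms. TCTTT with its first base within 10 bp of the start, on the sense strand, was in 18 hosts (19.6%) against 2.95%. It was in 11 of 29 ribosomal protein hosts (37.9%) and 29 of 57 that are no hosts (50.9%), in 2 of 7 Uhg genes and in 5 of 52 other protein-coding hosts (9.62%). By summit, it was in 16 of the 62 hosts with a reproducible one and in 2 of the 30 without. Of the 29 ribosomal protein hosts, 28 were among the 62, so this split is also one of host group. The DREF site was in 13 of the 62 (21.0%) and 7 of the 30 (23.3%), and E-boxes in 64.5% and 60.0%.

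At the summits themselves, 101 bp windows at the 61 distinct highest host summits held an E-box in 21 (34.4%, 22.7 to 47.7), where all 5636 reproducible summits held one in 33.9%. CATATG was in 0 of 61, which allows up to 5.87%, against 3.83%, and CAGCTG in 3 (4.92%) against 3.55%. The DREF site was in 4 (6.56%, 1.82 to 15.9) against 1.51%. The mean GC content was 39.4% ± 10.9 (SD over 61 windows) at host summits and 32.8% ± 9.29 over all. All 61 host summits lay within 500 bp of a start, while the 5636 also hold summits away from starts. No comparison with summits at the starts of other genes was run. A match describes letters in a window and does not show a bound site.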

How the data were processed

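Chromatin immunoprecipitation and sequencing of tagged Fer3 gave 4 deposited narrowPeak lists on dm6: 1 for each replicate, 1 pooled and 1 thresholded by the irreproducible discovery rate, per the deposited file descriptions. Each peak carries the authors' signal value, whose scale is not defined, and a deposited −log10 q-value, used only as a filter at 0.05. Neither aligner nor peak caller is given in the sources used here. Per the labels, chromatin was sonicated to 200 to 800 bp. The control's values were not used.

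The deposited summits were set against the Ensembl release 115 annotation. A few lie outside their stated interval (5 of the 5636 reproducible) and were used as given. A summit counted for a gene within 500 bp of it, or within 500 bp of any annotated start of a host, which is a gene with the snoRNA gene wholly in a same-strand intron. Ribosomal protein genes and microRNA genes were taken by symbol. The counting was checked on planted summits. Counting used pandas 2.3.3 and numpy 2.4.6 under Python 3.11.15. Intervals came from scipy 1.17.1 and figures from matplotlib 3.10.9.

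Named hosts are the 10 that hold most snoRNA genes, the 10 with the highest reproducible peaks and those that hold at least 2 with no pooled summit. Named snoRNA genes are the 10 with the highest reproducible peaks, those outside same-strand introns and those of the U class. RpL5, RpL15, Edc3, pths, the other Uhg genes and the intronic genes with a summit away from a host start were named after their values were seen. Some results on single genes are not reported here. The members and lists were chosen with earlier results of these data known. Alternatives changed the distance, used the whole peak, took the reproducible peaks above the median signal or a q-value limit, replaced the reproducible list by the 5636 highest peaks of 1 replicate and the pooled list by 1 whole replicate list, merged neighbouring genes and changed the host definition.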

Additional observations from a re-analysis of the deposited data

How the results depend on the processing

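Of 52 alternative counts over 8 results, 42 lay within 1.5 times of the reported count. Hosts with a reproducible summit numbered 45 to 67 and hosts with a pooled one 69 to 82 over all alternatives run. The counts near snoRNA genes moved with the distance. Reproducible summits were near 12 genes within 250 bp and near 74 within 1000 bp, against 24. Pooled summits were near 43 and 143, against 69, and near 44 with a q-value of at most 0.05. Among the reproducible peaks above the median signal the counts were 13 snoRNA genes, 2 of those outside same-strand introns and 4 snoRNA particle genes, against 24, 6 and 9; this list is a subset. Outside same-strand introns 10 genes had a reproducible summit within 1000 bp. With the top peaks of a single replicate, the count outside same-strand introns ranged from 2 to 8, where 2 is without replicate 2. The same replacement gave 16 to 26 snoRNA genes with a reproducible summit, 47 to 101 with a pooled one, 59 to 67 hosts and 8 to 10 snoRNA particle genes. Pooled counts outside same-strand introns, 15 to 24 of 26, were run under settings chosen after seeing the data. Depth could not be weighed, since the lists hold no read counts. With 2 replicates of 1 group, no replicate number pairs groups. No paired analysis was possible because there was 1 group.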

Other observations

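The case of RpL5, high in both replicate lists and absent from the pooled list, was looked for elsewhere. Among the 5636 highest peaks of replicate 1, 4378 overlapped a peak among as many of the highest of replicate 2. Of these, 17 overlapped no pooled peak. In the reproducible list, 178 peaks overlapped no replicate 1 peak and 77 no replicate 2 peak, so replicate 2 covered more of it.

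By arm, 12 of the 96 snoRNA genes on 2R had a reproducible summit within 500 bp (12.5%, 6.63 to 20.8), 4 of 41 on 2L, 4 of 52 on 3L, 2 of 48 on 3R and 2 of 31 on X. Over all arms the share was 8.92%. Some of the genes on 2R shared a summit, as at Uhg4 and at Psi28S-1153. Among the hosts on 2R, 12 of 22 had one at a start and 18 a pooled one. Over all arms it was 62 and 74 of the 92 hosts. Shares over all genes of each arm are not given here. No difference between arms was tested.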
